A study of Rattus norvegicus with 47 samples.

Results

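Carcinomas whose group label names a beta-catenin mutation (n = 4 arrays) were compared with frozen adenomas (n = 6 arrays), 10 of the 47 expression arrays in a study of rat liver lesions. Arrays were chosen by their group label alone. All animals were male Wistar rats given 250 mg/kg of the nitrosamine N-nitrosomorpholine at 4 weeks of age and, after 3 weeks of recovery, 50 mg/kg of phenobarbital per day for up to 17 months, so the adenomas and the liver around every lesion carried the same treatment. The labelled carcinomas came from 3 animals, with replicate 1 from animal 10, replicate 2 from animal 21 and replicates 3 and 4 from animal 23. The adenomas came from 2 animals, with replicates 1 to 3 from animal 14 and replicates 4 to 6 from animal 23. Lesions of 1 animal share their host. P-values measure only the spread between arrays, which was estimated over 26 frozen arrays of 5 groups that include these 10. Bulk tissue was measured, so fewer cells of a type and less RNA per cell cannot be told apart.

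The labels give each lesion a control set with 1 array of surrounding liver. The labelled carcinomas used 3 sets (of animals 10, 21 and 23) and the adenomas 2 others (of animals 14 and 23), and no set held lesions of both groups. Differences are therefore given as labelled carcinomas minus adenomas in 2 forms, both on the log2 scale. The plain difference sets the lesions against each other, and the matched difference compares how far lesions lay from the surrounding array of their own set, in a fit to which the other lesions of those sets also contribute. A standard error from the fit follows most differences fitted with all arrays, and some differences are given in the plain form alone. A gene was called at an adjusted p under 0.05 over 14217 genes.

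Beta-catenin carries the Wnt signal into the nucleus, where it works with transcription factors of the TCF and LEF family. In the absence of the signal a complex built on Axin and APC marks it for destruction, and mutations in its amino-terminal stretch let it escape. In normal liver the pathway is most active in hepatocytes around the central vein, where it maintains glutamine synthesis and a set of cytochromes P450, and it is low around the portal vein, where urea synthesis and gluconeogenesis dominate. Several of its targets, among them Axin2 and Znrf3, are themselves brakes on the pathway.

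The label was checked against these targets before any comparison. Replicates 2 to 4 had high Axin2, Lgr5 and Glul, and replicate 1, whose source name lacks the mutation that its group label carries, had values of Lgr5 and Glul inside the adenoma range. Over all genes its mean correlation was 0.957 with the other labelled carcinomas and 0.964 with the adenomas, whereas replicates 2 to 4 had 0.973 to 0.976 with the other labelled carcinomas and 0.956 to 0.960 with the adenomas. The library labelled as replicate 1 was kept under its group label, and values without it are given beside the results. It was doubted for its source name, its values of these targets and its correlations over all genes. Tests without it are therefore conditioned on their outcome, most directly for Wnt and pericentral genes. The p-values and counts of called genes of every fit without replicate 1 are descriptions. The mutation itself was not measured by these arrays. Hepatocyte RNA was high in all lesions, with albumin (Alb) between 14.95 and 15.05 in labelled carcinomas and between 15.06 and 15.13 in adenomas. Transthyretin (Ttr) had 13.71 to 14.13 and 13.61 to 14.31. The apolipoprotein gene Apoa1 had 11.78 to 14.23 and 13.35 to 14.43, with a plain difference of -1.13 ± 0.30 (adjusted p = 0.0106). That call was lost without labelled carcinoma replicate 3 (adjusted p = 0.0748) or 4 (adjusted p = 0.0534). Equal hepatocyte content was not tested.

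In the plain fit 3035 of 14217 genes were called (21.3%), 1149 higher (8.08%) and 1886 lower (13.3%) in labelled carcinomas. With animal as a block the counts were 748 higher (5.26%) and 1205 lower (8.48%). Fitted on only the 10 lesion arrays, 1629 genes were called. In that setting 39 of the 80 named genes called in the plain fit lost the call, which is not repeated for every gene below. The median difference over all genes was -0.06, and 224 of the higher and 217 of the lower genes differed by at least 2-fold. Quantile normalization turned the balance to 1607 higher and 1207 lower, so the larger number of lower genes depends on the scaling. In the matched fit limma called 0 genes. At an unadjusted p under 0.05, 1144 genes (8.05%) passed that fit, and the smallest adjusted p was 0.142. The median standard error was 0.137 in the plain fit and 0.205 in the matched fit. Without replicate 1 the plain fit called 3301 genes, 1342 higher (9.44%) and 1959 lower (13.8%), and the matched fit called 33, 21 higher (0.148%) and 12 lower (0.0844%).

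Of the 3035 genes called in the plain fit, 2769 (91.2%) had the same sign in the matched fit, against 73.6% of all genes. Animal 23, the sole animal with lesions of both groups, gave the same sign for all 3035, against 86.1% of all genes. Its arrays are part of the fit, and its carcinomas and adenomas have different control sets, so this agreement is no independent support. For 1548 of the called genes (51%) the surrounding arrays of the 2 kinds of sets differed in the same direction by more than 0.5 of the plain difference, against 47.2% of all genes. Control set and lesion group cannot be told apart.

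The Wnt feedback and stem cell targets were higher in the labelled carcinomas. Of 12 measured members 7 were called higher and 0 lower, with a median plain difference of 0.75 and a median matched difference of 0.82, against -0.06 and 0.01 over all genes. Without replicate 1 the count was also 7 higher and 0 lower, and with animal as a block it was 5 higher and 0 lower. The shares of all genes called higher were 8.08%, 9.44% without replicate 1 and 5.26% with animal as a block. The 7 were Lgr5, Axin2, Znrf3, Apcdd1, Nkd1, Tcf7 and Tnfrsf19.

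Lgr5, the R-spondin receptor that marks Wnt-active stem cells, had log2 values of 3.08, 6.78, 7.06 and 7.08 in labelled carcinoma replicates 1 to 4. The 6 adenomas lay between 3.03 and 3.56 with a median of 3.34. Replicates 2 to 4 thus stood far above every adenoma, and replicate 1 stood among them. The plain difference was 2.71 ± 0.58 (adjusted p = 0.00222) and the matched difference was 2.53 ± 1.07 (adjusted p = 0.589). Without replicate 1 these were 3.68 (adjusted p = 1.07e-05) and 3.89 (adjusted p = 0.0378). The adenoma values lay below the array medians of 5.49 to 5.59, and no detection calls were used here, so no fold is given for Lgr5 or for other genes with such low values in either group. The surrounding liver of the carcinomas' sets and of the adenomas' sets differed by 0.14, and minus its own surrounding array Lgr5 was -0.27, 3.40, 3.52 and 3.54 in the labelled carcinomas and -0.21 to 0.33 in the adenomas.

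Axin2, the scaffold of the destruction complex and a feedback brake, had 5.7, 7.89, 7.94 and 8.05 in the labelled carcinomas, against a lowest value of 4.36, a median of 4.83 and a highest of 5.38 in the adenomas. All 4 labelled carcinomas lay above all 6 adenomas, replicate 1 by the least. The rise was 2.50 ± 0.42 (adjusted p = 0.000353), with a matched difference of 1.92 ± 0.77 (adjusted p = 0.564). Surrounding liver was itself 0.60 higher in the carcinomas' sets, and after subtraction replicate 1 (-0.26) fell back into the adenoma range of -0.75 to 0.13.

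Znrf3, a ubiquitin ligase that removes Wnt receptors from the membrane, had 6.45, 7.66, 7.29 and 7.73 in the labelled carcinomas and 5.56 to 6.34, median 5.90, in the adenomas. It rose by 1.36 ± 0.30 (adjusted p = 0.00299), with a matched difference of 1.53 ± 0.55 (adjusted p = 0.533). The groups did not overlap in either form. Minus surrounding liver all 4 labelled carcinomas were above 0 (0.23, 0.68, 0.85 and 1.29), whereas the adenomas lay between -1.14 and -0.36.

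Apcdd1, an inhibitor of Wnt at the cell surface, had 5.87, 5.85, 7.46 and 8.14 in the labelled carcinomas, against 4.61 to 5.78 with a median of 5.00 in the adenomas, a rise of 1.74 ± 0.36 (adjusted p = 0.00179). Nkd1, which binds Dishevelled and dampens the signal, had 6.11, 6.05, 6.31 and 7.95, against 5.33 to 6.10 with a median of 5.62 in the adenomas. Its rise of 0.94 ± 0.27 (adjusted p = 0.0143) rested on replicate 4, and without it the difference was 0.50 (adjusted p = 0.0852). Tcf7, a TCF family transcription factor, had 5.06, 7.48, 7.39 and 7.20 in the labelled carcinomas and 4.29 to 5.95 in the adenomas. Replicates 2 to 4 were above all adenomas and replicate 1 was not. The matched differences of Apcdd1, Nkd1 and Tcf7 were 1.64 ± 0.56, 0.79 ± 0.49 and 1.25 ± 0.79, none called. The rise of Tcf7 (1.31 ± 0.45, adjusted p = 0.0393) and that of the receptor Tnfrsf19 (0.55 ± 0.19, adjusted p = 0.0468) were near the threshold. With animal as a block the adjusted p was 0.0574 for Tcf7 and 0.148 for Tnfrsf19, and either call was also lost when any of labelled carcinoma replicates 2, 3 and 4 was left out (adjusted p of 0.108 to 0.173), and without adenoma replicates 4, 5 or 6 for Tcf7 and 2, 3 or 6 for Tnfrsf19 (adjusted p of 0.0523 to 0.0933).

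The other 5 members did not pass the test. The plain difference was -0.31 for the transcription factor Lef1 (adjusted p = 0.374), 0.07 for the secreted Wnt inhibitor Wif1 (adjusted p = 0.869), 0.41 for cyclin D1 (Ccnd1, adjusted p = 0.418), 0.21 for Myc (adjusted p = 0.687) and 0.03 for Prox1 (adjusted p = 0.885). Ccnd1 and Myc had overlapping values, with 9.89 to 10.86 and 8.51 to 10.36 in labelled carcinomas and 9.38 to 10.43 and 9.01 to 9.62 in adenomas.

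Promoter windows of the Wnt and pericentral genes were searched for the 7-letter core bound by TCF and LEF proteins, CTTTGAT, or ATCAAAG when it lies on the other strand. A window runs from 250 bases before to 50 bases after the annotated gene start in RefSeq (rat assembly GRCr8). The core occurred in 3 of 7 windows of the Wnt list (Axin2, Nkd1 and Tcf7) and in 3 of 12 windows of the pericentral list (Cyp1a2, Glul and Lect2), against 1216 of all 33469 windows (3.63%). The other measured members of the lists, Lgr5, Znrf3 and Tbx3 among them, had no window in the reference and were not searched. A match describes these letters alone. The windows of 3 genes that rose are shown because they hold the core in either orientation, which is in capitals, at chr10:94398535-94398834 on the plus strand for Axin2, at chr19:34722797-34723096 on the minus strand for Nkd1 and at chr13:68519250-68519549 on the plus strand for Glul, each written 5′ to 3′ along its gene.
Axin2: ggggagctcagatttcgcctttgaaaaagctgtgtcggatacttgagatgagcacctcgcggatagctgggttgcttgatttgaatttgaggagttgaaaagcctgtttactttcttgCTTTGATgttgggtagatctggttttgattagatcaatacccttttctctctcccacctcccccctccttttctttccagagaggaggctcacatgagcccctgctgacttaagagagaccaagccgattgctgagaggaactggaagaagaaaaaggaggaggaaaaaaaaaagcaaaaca
Nkd1: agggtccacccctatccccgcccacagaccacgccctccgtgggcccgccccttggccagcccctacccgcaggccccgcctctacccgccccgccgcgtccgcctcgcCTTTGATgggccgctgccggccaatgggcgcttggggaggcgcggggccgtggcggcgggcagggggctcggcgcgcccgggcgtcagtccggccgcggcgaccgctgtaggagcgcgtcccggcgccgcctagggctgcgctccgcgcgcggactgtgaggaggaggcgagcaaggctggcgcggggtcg
Glul: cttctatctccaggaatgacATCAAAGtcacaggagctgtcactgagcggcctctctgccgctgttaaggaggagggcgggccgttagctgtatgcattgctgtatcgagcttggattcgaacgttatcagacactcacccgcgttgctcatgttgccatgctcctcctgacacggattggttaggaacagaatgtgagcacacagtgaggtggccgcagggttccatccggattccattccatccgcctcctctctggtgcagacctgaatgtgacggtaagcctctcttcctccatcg

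**Figure D1:**
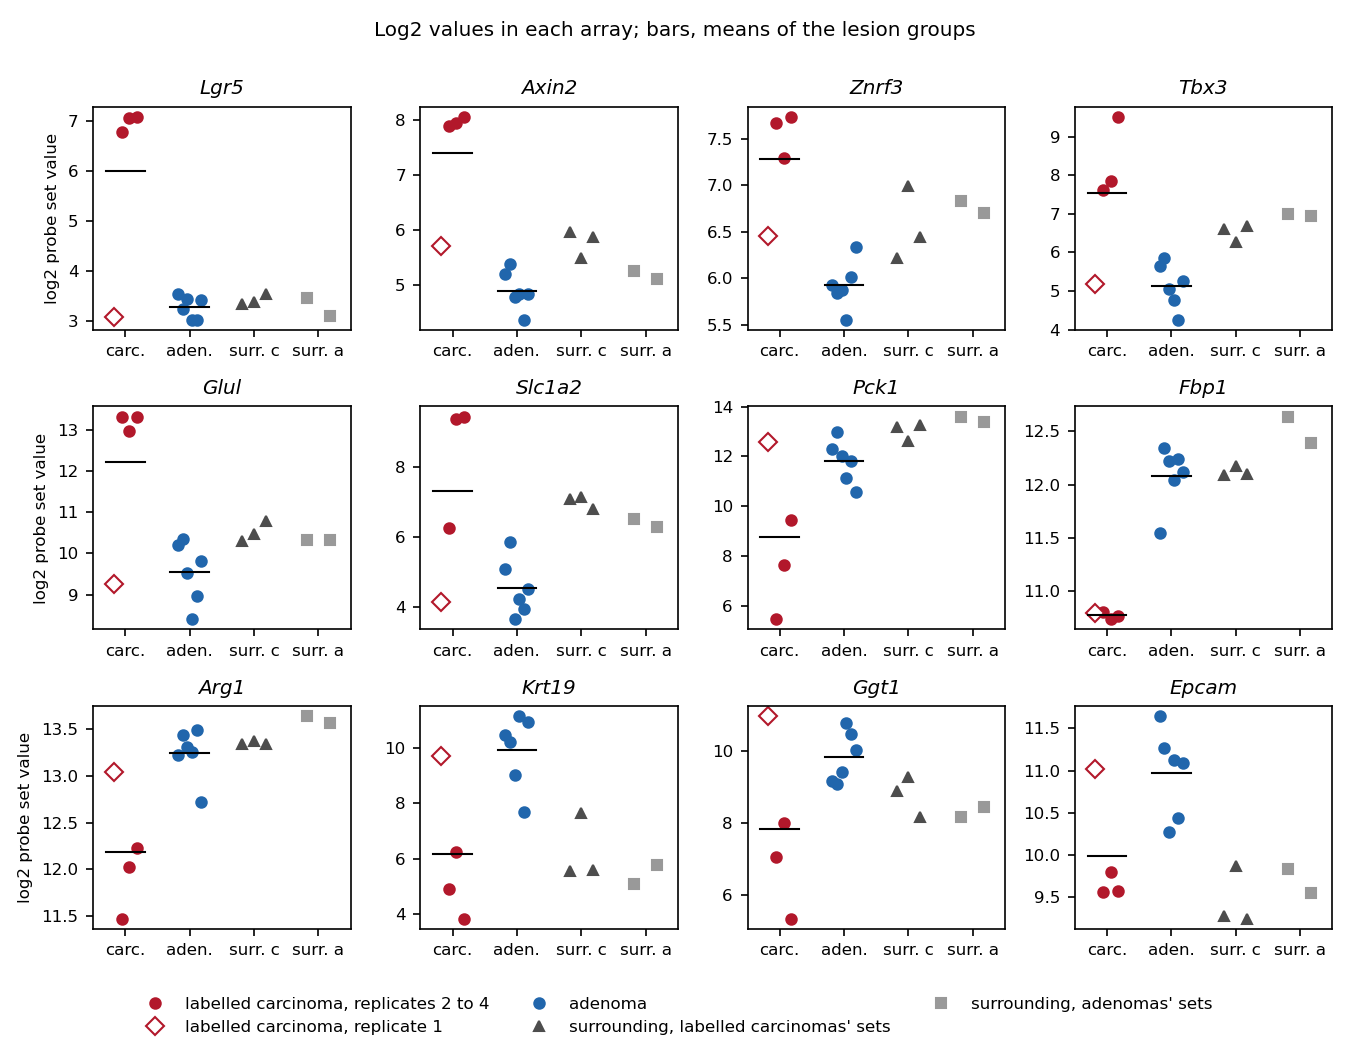
Log2 probe set values of 12 genes, with 1 point per array and bars at the means of the 4 labelled carcinomas (carc.) and the 6 adenomas (aden.), beside the surrounding arrays of the carcinomas' sets (surr. c) and of the adenomas' sets (surr. a). Labelled carcinoma replicate 1, the open diamond, lies with the adenomas for Lgr5 (3.08), Glul (9.26) and Krt19 (9.72) and with the other labelled carcinomas for Fbp1 (10.79).

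Pericentral genes had the largest median shift of the gene lists in both fits. Of 15 measured members 9 rose and 0 fell, with a median difference of 1.49 in the plain and 1.38 in the matched fit. The animal block gave 9 higher. Among all genes 8.08% were higher in the plain fit and 5.26% with that block. Without replicate 1 the count was 10 and the medians were 1.98 in the plain and 2.1 in the matched fit, and Tbx3 was the 1 member called in that matched fit. The 9 were Glul, Slc1a2, Cyp1a2, Tbx3, Gulo, Slc13a3, Cyp2e1, Rgn and Rnase4.

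Glul, the glutamine synthetase confined to the last hepatocytes around the central vein in normal liver, had 9.26, 13.32, 12.96 and 13.31 in the labelled carcinomas, against 8.40 to 10.35 with a median of 9.67 in the adenomas. Replicates 2 to 4 were above every adenoma and also above all 5 surrounding arrays, whose group means were 10.52 in the carcinomas' sets and 10.32 in the adenomas' sets. The rise was 2.67 ± 0.66 (6.35-fold, adjusted p = 0.00596), with a matched difference of 2.27 ± 1.20 (adjusted p = 0.648). Without replicate 1 the plain difference was 3.65 (adjusted p = 9.4e-05) and the matched one 3.69 (adjusted p = 0.0811).

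Tbx3, a T-box transcription factor and known beta-catenin target in liver tumours, had 5.18, 7.62, 7.86 and 9.5 in the labelled carcinomas and 4.26 to 5.87, median 5.15, in the adenomas. It rose by 2.40 ± 0.53 (adjusted p = 0.00272), and the matched difference of 2.56 ± 0.95 (adjusted p = 0.533) became 3.69 (adjusted p = 0.0378) without replicate 1. The mean over all probe sets of the gene gave a smaller plain difference of 1.31 (adjusted p = 0.0012). Gulo, the last enzyme of vitamin C synthesis, had 10.60, 12.21, 12.04 and 12.25 in the labelled carcinomas, against 8.88 to 10.20 in the adenomas, and rose by 2.25 ± 0.35 (adjusted p = 0.000194). In plain values Gulo was the member whose groups did not overlap even with replicate 1 included. Minus surrounding liver its replicate 1 (-0.50) lay in the adenoma range of -1.59 to -0.28. The matched difference of Gulo was 1.58 ± 0.60 (adjusted p = 0.539).

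Slc1a2, a glutamate transporter, had 4.16, 6.25, 9.36 and 9.42 in the labelled carcinomas and 3.66 to 5.86 in the adenomas. The 2 lesions of animal 23 were far above the other 2 labelled carcinomas. The rise of 2.74 ± 0.75 (adjusted p = 0.0117) was 2.05 without replicate 3 (adjusted p = 0.0722) and 2.03 without replicate 4 (adjusted p = 0.0684), and 1.65 over the mean of its probe sets (adjusted p = 0.00923). The dicarboxylate transporter Slc13a3 had 5.71, 7.55, 8.80 and 9.04, against 5.24 to 6.80 in the adenomas, with the same order of lesions. Its rise of 1.66 ± 0.46 (adjusted p = 0.0123) was likewise lost without replicate 3 (1.32, adjusted p = 0.0686) and without replicate 4 (1.24, adjusted p = 0.0711). In the matched fit the differences were 2.03 ± 1.33 for Slc1a2 and 1.58 ± 0.78 for Slc13a3, neither called.

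Cyp1a2, a cytochrome P450 of drug and aromatic amine oxidation, had 7.94, 9.48, 11.04 and 10.84 in the labelled carcinomas, against 6.31 to 9.5 with a median of 6.76 in the adenomas, where 1 array held the 9.5. It rose by 2.69 ± 0.67 (adjusted p = 0.00674). Cyp2e1, which oxidises ethanol and nitrosamines, had 12.80, 13.50, 13.40 and 14.34, against 10.56 to 13.37 in the adenomas, a rise of 1.54 ± 0.40 (adjusted p = 0.00834). Fitted on only the 10 lesion arrays Cyp2e1 was not called (adjusted p = 0.0869). Minus surrounding liver Cyp1a2 was -4.34, -1.70, -0.35 and -0.55 in the labelled carcinomas and -4.98 to -1.84 in the adenomas, with replicate 1 inside the adenoma range, and Cyp2e1 was -0.93, -0.42, -0.57 and 0.37 in the labelled carcinomas and -3.17 to -0.36 in the adenomas. Regucalcin (Rgn) rose by 1.49 ± 0.42 (adjusted p = 0.0133) and the ribonuclease Rnase4 by 0.56 ± 0.15 (adjusted p = 0.0101). The Rgn call was lost without replicate 2 (1.30, adjusted p = 0.0532) and without replicate 4 (1.26, adjusted p = 0.0583), and the Rnase4 call without replicate 4 (0.39, adjusted p = 0.0636). Rnase4 was 1.04 over the mean of its probe sets (adjusted p = 0.000266). Matched differences were 2.33 ± 1.20 for Cyp1a2, 1.31 ± 0.71 for Cyp2e1, 1.42 ± 0.76 for Rgn and 0.57 ± 0.27 for Rnase4, none called.

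The remaining 6 pericentral members did not pass. Lect2, a secreted hepatocyte protein, had 9.30, 11.89, 12.12 and 11.91 in the labelled carcinomas and 8.46 to 11.21 in the adenomas, a difference of 1.33 (adjusted p = 0.0664) that was 2.0 without replicate 1 (adjusted p = 0.00359). Differences were 1.22 for ornithine aminotransferase (Oat, adjusted p = 0.139), 0.89 for the bile acid enzyme Cyp7a1 (adjusted p = 0.355), 0.53 for the vasopressin receptor Avpr1a (adjusted p = 0.587), 0.20 for Cyp27a1 (adjusted p = 0.593) and 0.11 for the transporter Slc22a3 (adjusted p = 0.433). Avpr1a was below surrounding liver in every lesion of either group, by 1.14 to 5.39 in labelled carcinomas and 0.79 to 5.07 in adenomas.

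Periportal genes were lower. Of 16 measured members 0 rose and 8 fell, with a median of -1.04 in the plain and -0.78 in the matched fit. Without replicate 1, 10 fell, and with animal as a block 4 fell. The shares of all genes called lower were 13.3%, 13.8% without replicate 1 and 8.48% with animal as a block.

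Fbp1, the gluconeogenic fructose bisphosphatase, had 10.79, 10.80, 10.74 and 10.77 in the labelled carcinomas, a span of under 0.1, against 11.55 to 12.35 with a median of 12.17 in the adenomas. Replicate 1 did not stand apart here. Fbp1 fell by 1.31 ± 0.16 on the log2 scale (adjusted p = 5.97e-05), with a matched difference of -0.86 ± 0.26 (adjusted p = 0.49). Minus surrounding liver the values were -1.30, -1.37, -1.36 and -1.33 in the labelled carcinomas and -1.09 to -0.15 in the adenomas, so the groups stayed apart.

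The urea cycle enzymes arginase (Arg1) and ornithine transcarbamylase (Otc) were also lower. Arg1 had 13.04, 11.47, 12.02 and 12.23 in the labelled carcinomas and 12.72 to 13.49 in the adenomas, a difference of -1.05 ± 0.20 (adjusted p = 0.00109). Otc had 11.74, 10.66, 9.45 and 11.28 in the labelled carcinomas and 11.69 to 12.34 in the adenomas, a difference of -1.23 ± 0.27 (adjusted p = 0.00281). Without replicate 3, its lowest array, the Otc difference was -0.78 (adjusted p = 0.0138). Fitted on only the 10 lesion arrays Otc was not called (adjusted p = 0.0536). Pck1, the rate-limiting gluconeogenic enzyme, had 12.57, 5.45, 7.63 and 9.43 in the labelled carcinomas and a lowest of 10.55 and a median of 11.92 in the adenomas. Replicates 2 to 4 were below all adenomas while replicate 1 was near their top. Pck1 fell by 3.04 ± 0.84 (adjusted p = 0.0121). The call was lost without replicate 2 (-1.93, adjusted p = 0.0795), without replicate 3 (-2.66, adjusted p = 0.0532) and with animal as a block (-2.18, adjusted p = 0.0616), and the difference was -4.30 without replicate 1 (adjusted p = 0.000179). Arg1, Otc and Pck1 had matched differences of -0.79 ± 0.36, -1.07 ± 0.51 and -2.59 ± 1.13, none called.

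**Figure D2:**
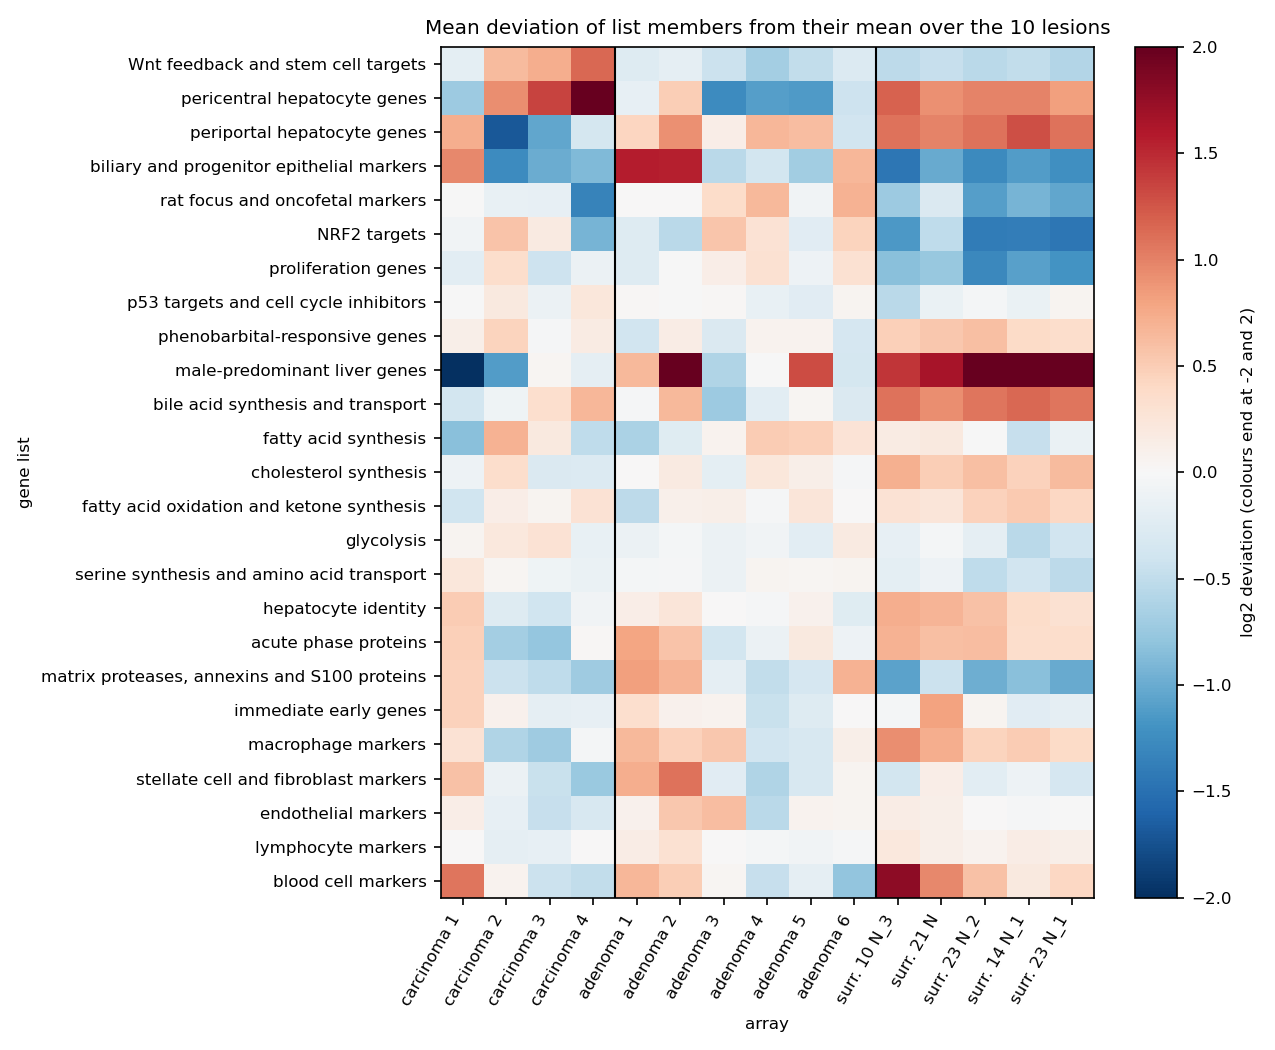
Mean log2 deviation of the measured members of each gene list (rows) from their mean over the 10 lesions, for the 4 labelled carcinomas, the 6 adenomas and the 5 surrounding arrays (columns), with colours ending at -2 and 2. Wnt targets lie between 0.63 and 1.15 in labelled carcinomas 2 to 4, at -0.20 in labelled carcinoma 1 and between -0.68 and -0.19 in the adenomas.

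Among markers of biliary and progenitor-like epithelium and of early rat liver lesions, Krt19, Epcam, Ggt1 and Gpx2 fell, and for Krt19 and Epcam replicate 1 lay within the adenoma range. As lists they were called lower about as often as all genes (2 of 10 and 2 of 13, against 13.3%). Krt19, a keratin of bile ducts and progenitor cells, had 9.72, 4.90, 6.22 and 3.83 in the labelled carcinomas, against 7.69 to 11.14 with a median of 10.32 in the adenomas. Minus surrounding liver Krt19 was 4.17, -2.75, 0.62 and -1.77 in the labelled carcinomas and 1.91 to 5.36 in the adenomas, so every adenoma and labelled carcinomas 1 and 3 exceeded their surroundings. It fell by 3.74 ± 0.97 on the log2 scale (adjusted p = 0.00842), with a matched difference of -4.44 ± 1.82 (adjusted p = 0.58). Without replicate 1 these were -4.92 (adjusted p = 0.000607) and -6.12 (adjusted p = 0.11).

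Ggt1, the gamma-glutamyl transferase used to stain preneoplastic foci in rat liver, had 10.96, 7.05, 8.0 and 5.35 in the labelled carcinomas and 9.08 to 10.77, median 9.73, in the adenomas. Replicate 1 was above every adenoma and the other 3 were below every adenoma. Ggt1 fell by 1.98 ± 0.63 (adjusted p = 0.0273), with a matched difference of -2.02 ± 1.07 (adjusted p = 0.648). The call was lost without labelled carcinoma replicate 2 (-1.72, adjusted p = 0.0912), replicate 3 (-2.03, adjusted p = 0.0542) or replicate 4 (-1.15, adjusted p = 0.172), and without adenoma replicate 4 (-1.79, adjusted p = 0.0514) or 5 (-1.85, adjusted p = 0.0501). Without replicate 1 the plain difference was -3.02 (adjusted p = 0.000152) and the matched one -3.31 (adjusted p = 0.0732).

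The adhesion molecule Epcam had 11.02, 9.56, 9.80 and 9.57 in the labelled carcinomas and 10.27 to 11.64 in the adenomas, again with replicate 1 among the adenomas. Its fall of 0.99 ± 0.27 (adjusted p = 0.0117) was lost without replicate 2 (-0.84, adjusted p = 0.0505), without replicate 4 (-0.85, adjusted p = 0.0503) and with animal as a block (-0.85, adjusted p = 0.079). The glutathione peroxidase Gpx2 fell by 1.79 ± 0.56 (adjusted p = 0.0245), a call lost without replicate 2 (-1.67, adjusted p = 0.0655), without replicate 4 (-1.29, adjusted p = 0.125) and with animal as a block (-1.56, adjusted p = 0.0664). Epcam and Gpx2 had matched differences of -0.71 ± 0.48 and -1.66 ± 0.87, neither called. No biliary marker rose, and 1 of the 13 focus and oncofetal markers did, near the 8.08% of all genes, namely the Delta-like protein Dlk1 (0.35 ± 0.12, adjusted p = 0.0441). The Dlk1 rise was lost without labelled carcinoma replicate 2 (0.22, adjusted p = 0.218) and with animal as a block (adjusted p = 0.0768), among other settings. The list medians were -0.58 and -0.30, and with animal as a block 1 biliary and 3 focus and oncofetal markers were lower.

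Outside the lists, the largest rise among genes with the same sign in both fits was that of Cxcl13, the chemokine that attracts B cells. It had 4.05, 11.53, 10.26 and 11.66 in the labelled carcinomas, against 4.20 to 6.90 with a median of 4.94 in the adenomas. Replicate 1 was below all adenomas and the other 3 were far above them. The plain difference was 4.15 ± 1.03 (adjusted p = 0.00641) and the matched difference was 3.98 ± 1.84 (adjusted p = 0.608). Without replicate 1 the difference was 5.92 (adjusted p = 1.48e-05) in the plain fit and 6.38 (adjusted p = 0.0378) in the matched fit. Fitted on only the 10 lesion arrays Cxcl13 was not called in the plain form (adjusted p = 0.0678). Of 13 lymphocyte markers 0 were called higher and 3 lower in the labelled carcinomas, against 8.08% and 13.3% of all genes.

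LOC102554026, an uncharacterised locus, had 4.13, 9.06, 10.01 and 9.66 in the labelled carcinomas and 3.90 to 5.84 in the adenomas, a rise of 3.52 ± 0.85 (adjusted p = 0.00506) with the same pattern over replicates as Lgr5. Pbsn, the androgen-regulated secretory protein probasin of the rat prostate, had 3.06, 5.34, 7.68 and 12.31, against 3.29 to 4.11 in the adenomas. Its rise of 3.40 ± 0.95 (adjusted p = 0.0132) depended on replicate 4, and without it the difference was 1.66 (adjusted p = 0.0587).

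Among the largest falls, the pancreatic protease gene Ctrc had 5.82, 4.49, 4.60 and 4.67 in the labelled carcinomas and 5.90 to 11.72, median 8.67, in the adenomas, a difference of -3.82 ± 0.95 (adjusted p = 0.00651). The adenomas spanned a wide range and the labelled carcinomas were all below it, replicate 1 only just. Minus surrounding liver, Ctrc in replicate 1 (1.15) lay in the adenoma range of 0.90 to 7.31. The matched difference of Ctrc was -4.26 ± 1.67 (adjusted p = 0.547). Aass, the first enzyme of lysine breakdown, had 10.98, 5.31, 5.26 and 4.24 in the labelled carcinomas and 8.43 to 10.82 in the adenomas. The surrounding arrays averaged 11.37 in the carcinomas' sets and 11.43 in the adenomas' sets, and replicates 2 to 4 lay over 5 below their own surrounding array, replicate 1 by 0.67. Its fall of 3.06 ± 0.88 (adjusted p = 0.0154) was lost without replicate 2 (-2.68, adjusted p = 0.0586), 3 (-2.67, adjusted p = 0.0647) or 4 (-2.33, adjusted p = 0.0826). The glutamate receptor subunit Gria3 had 9.66, 5.5, 3.89 and 3.20 in the labelled carcinomas and 6.97 to 9.87 in the adenomas, and its fall of 2.89 ± 0.84 (adjusted p = 0.0156) was lost without replicate 3 (-2.34, adjusted p = 0.0793) or 4 (-2.11, adjusted p = 0.0893). Aass and Gria3 had matched differences of -2.57 ± 1.36 (adjusted p = 0.648) and -2.39 ± 1.40 (adjusted p = 0.686).

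Tsx and Klhl14 completed the falls. Tsx fell by 2.81 ± 0.80 (adjusted p = 0.0143) and was the one of these whose call was lost without replicate 1 (-2.31, adjusted p = 0.0529). Klhl14 fell by 2.74 ± 0.86 (adjusted p = 0.0256), with adenomas between 3.88 and 9.69, and its call was lost without any of labelled carcinoma replicates 2, 3 and 4 (adjusted p of 0.0608 to 0.0786), adenoma replicate 3 (adjusted p = 0.0606) or adenoma replicate 6 (adjusted p = 0.0602). The matched differences were -2.65 ± 1.09 for Tsx and -3.23 ± 1.36 for Klhl14, neither called.

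Some genes separated the groups with replicate 1 on the side of the other labelled carcinomas. In plain values 751 genes were higher in every labelled carcinoma than in every adenoma (5.28%) and 941 were lower (6.62%), and without replicate 1 the counts were 1290 (9.07%) and 1635 (11.5%). After subtraction of the surrounding array the counts were 375 higher (2.64%) and 265 lower (1.86%), and 115 genes were higher (0.809%) and 139 lower (0.978%) in both forms. Apart from Znrf3 and Fbp1, named genes in this set included Ppara, Cdkn2b and Mup5.

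Ppara, the nuclear receptor that drives fatty acid oxidation, had 6.44, 5.64, 6.31 and 6.09 in the labelled carcinomas and 4.17 to 5.06 in the adenomas, a rise of 1.59 ± 0.20 (adjusted p = 5.97e-05) with a matched difference of 0.96 ± 0.27 (adjusted p = 0.49). The cyclin-dependent kinase inhibitor Cdkn2b had 5.57, 5.80, 5.90 and 5.90, against 5.04 to 5.33 in the adenomas, a rise of 0.58 ± 0.11 (adjusted p = 0.000769) with a matched difference of 0.60 ± 0.17 (adjusted p = 0.49). Mup5, a major urinary protein under male growth hormone control, had 5.02, 4.64, 5.29 and 4.96 in the labelled carcinomas, against 6.52 to 9.49 in the adenomas and averages of 9.21 and 9.5 in the surrounding liver of the carcinomas' and the adenomas' sets. Mup5 fell by 2.71 ± 0.49 (adjusted p = 0.00065), or by 1.20 over the mean of its probe sets (adjusted p = 0.00963), and probes of this multigene family can read related members. The steroid dehydrogenase Hsd3b5, another male-predominant gene, fell by 2.46 ± 0.64 (adjusted p = 0.0089). It was the second of 2 falls among 8 measured genes of that list, against 13.3% lower over all genes. Mup5 and Hsd3b5 had matched differences of -2.42 ± 0.69 and -1.92 ± 0.89, neither called.

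A few further members of this set were singled out after their values were seen. Hspb1, a small heat shock protein, had 8.5, 8.42, 8.89 and 8.46 in the labelled carcinomas and 6.15 to 8.03 in the adenomas (plain difference 1.57 ± 0.44, adjusted p = 0.0124). Glud1, the mitochondrial glutamate dehydrogenase, had 12.49, 13.20, 13.37 and 13.21, against 11.73 to 12.20 in the adenomas (1.03 ± 0.16, adjusted p = 0.000162). Daam2, a formin that acts in Wnt signalling, had 5.75, 6.30, 6.21 and 7.88, against 5.36 to 5.67 in the adenomas (1.01 ± 0.27, adjusted p = 0.0103). Their matched differences were 1.78 ± 0.66, 0.89 ± 0.29 and 1.31 ± 0.46, none of them called.

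**Figure D3:**
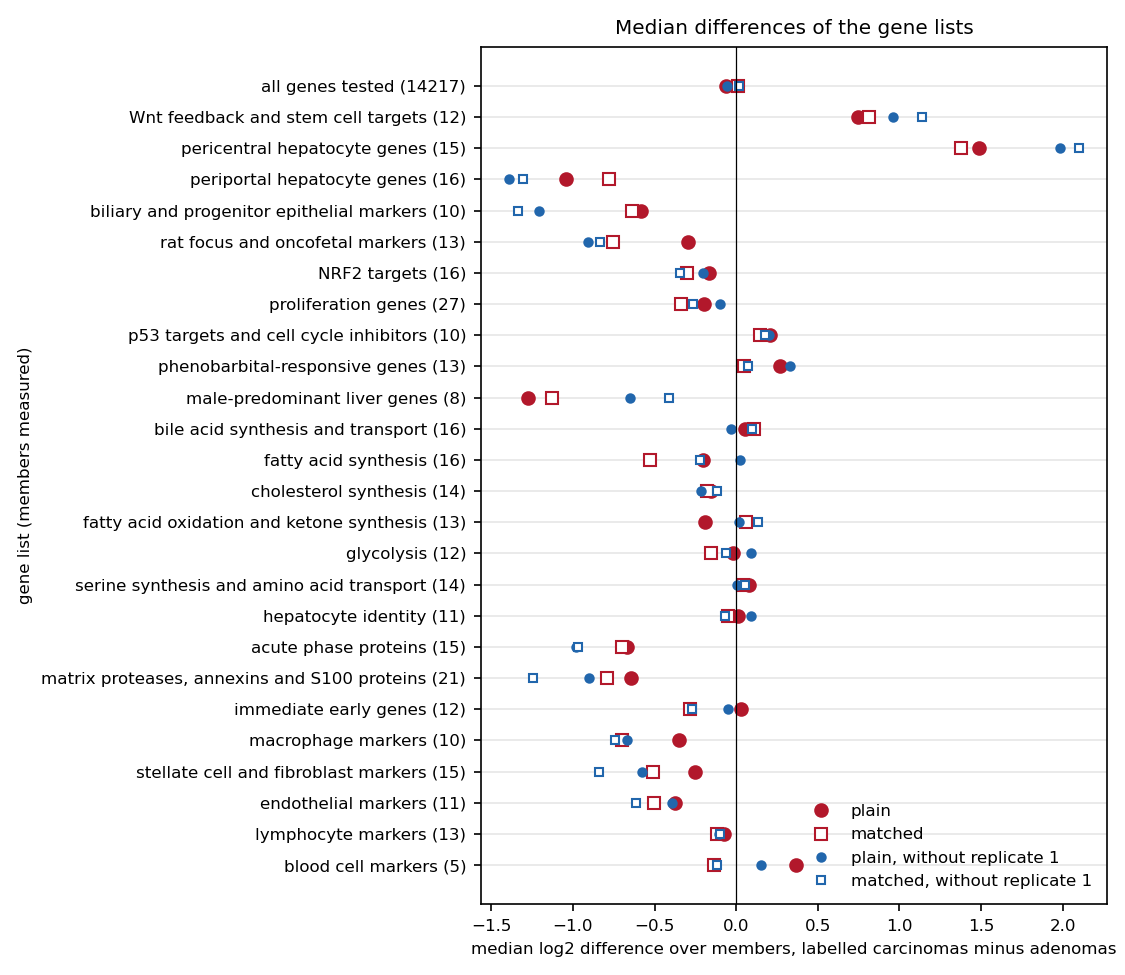
Median log2 difference, labelled carcinomas minus adenomas, over the measured members of each gene list (number in brackets), in the plain and the matched fit with and without labelled carcinoma replicate 1. Pericentral genes have a median of 1.49 and periportal genes of -1.04 in the plain fit, and leaving out replicate 1 moves both farther from 0.

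Genes of phenobarbital response and metabolism gave smaller counts. Of 13 measured phenobarbital-responsive genes 4 rose and 0 fell, with a median of 0.27 in the plain and 0.05 in the matched fit. The receptor Nr1i3 (CAR), through which phenobarbital acts, had 10.22, 10.05, 9.77 and 9.44 in the labelled carcinomas and 8.27 to 9.0 in the adenomas, a rise of 1.29 ± 0.19 (adjusted p = 0.000116) with a matched difference of 0.90 ± 0.23 (adjusted p = 0.49). The related receptor Nr1i2 (PXR) rose by 0.82 ± 0.16 (adjusted p = 0.00104), but surrounding liver differed by 0.70 between the sets and the matched difference was 0.19. In glycolysis 2 of 12 genes rose. The liver phosphofructokinase Pfkl had 7.24, 6.80, 7.31 and 6.91 in the labelled carcinomas, against 5.11 to 5.88 in the adenomas, and rose by 1.58 ± 0.21 (adjusted p = 9.01e-05), with a surrounding difference of 1.03 and a matched difference of 0.64. The animal block left 3 of the phenobarbital-responsive genes and 1 of the glycolytic genes higher. The shares of all genes called higher were 8.08% in the plain fit and 5.26% with animal as a block.

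Serine synthesis and amino acid transport genes were split, with 4 higher and 3 lower of 14 (3 and 1 with animal as a block), among them the transporter subunits Slc7a5 (1.30 ± 0.30, adjusted p = 0.00384) and Slc3a2 (0.94 ± 0.21, adjusted p = 0.00318). With animal as a block Slc7a5 was 0.80 (adjusted p = 0.0366). Surrounding liver differed by 0.77 for Slc7a5 and 0.47 for Slc3a2, and their matched differences were 0.61 and 0.45, neither called. Over all genes 8.08% were higher and 13.3% lower in the plain fit, and 5.26% and 8.48% with animal as a block. Several counts in this paragraph are near those shares. Of 27 proliferation genes limma called 0 in the plain fit (0 higher and 1 lower at an unadjusted p under 0.05), with a median of -0.20, and 5 as lower with animal as a block. The mitotic kinase Cdk1 had 6.71, 6.85, 5.76 and 6.53 in the labelled carcinomas and 6.79 to 7.81 in the adenomas (-0.79 ± 0.38, adjusted p = 0.141, and -1.42 with animal as a block, adjusted p = 0.00627). NRF2 targets had 2 higher and 1 lower of 16, fatty acid synthesis 1 and 1 of 16, cholesterol synthesis 1 and 1 of 14, bile acid genes 1 and 1 of 16, fatty acid oxidation 1 and 0 of 13, p53 targets and cell cycle inhibitors 1 and 1 of 10, immediate early genes 2 and 1 of 12 and hepatocyte identity genes 2 and 3 of 11. Under the animal block the counts higher and lower were 1 and 2 for NRF2 targets, 0 and 5 for fatty acid synthesis, 1 and 2 for cholesterol synthesis, 1 and 0 for bile acid genes, 1 and 0 for fatty acid oxidation, 1 and 0 for p53 targets and cell cycle inhibitors, 2 and 0 for immediate early genes and 2 and 1 for hepatocyte identity genes.

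Of 15 acute phase genes 7 fell and 2 rose, with a median of -0.67 in the plain and -0.70 in the matched fit. With animal as a block the counts were 2 lower and 2 higher, so the larger number of called falls depends on that choice. The median stayed negative with that block, at -0.64. Among all genes 13.3% were lower and 8.08% higher in the plain fit, and 8.48% and 5.26% with animal as a block. The fibrinogen chain Fgg had 13.64, 12.42, 12.30 and 12.90 in the labelled carcinomas, against 13.48 to 13.75 in the adenomas, and fell by 0.78 ± 0.17 (adjusted p = 0.00226). Its matched difference was -0.70 ± 0.26 (adjusted p = 0.533). C-reactive protein (Crp) had 12.50, 12.94, 12.32 and 12.97 in the labelled carcinomas, against 10.14 to 11.29 in the adenomas, and rose by 2.06 ± 0.31 (adjusted p = 0.000136). Surrounding liver was also 1.5 higher in Crp in the carcinomas' sets, and the matched difference was 0.55 ± 0.36.

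Markers of other cell types moved as follows, and their part in the results above was not tested. Macrophage markers had 0 higher and 2 lower of 10 (5 lower without replicate 1), with list scores of -0.72 to 0.28 in labelled carcinomas and -0.38 to 0.64 in adenomas. Stellate cell and fibroblast markers had 2 lower of 15 (scores of -0.75 to 0.58 in labelled carcinomas and -0.60 to 1.09 in adenomas), endothelial markers 2 lower of 11, lymphocyte markers 3 lower of 13 and blood cell markers 0 of 5 (1 higher and 0 lower at an unadjusted p under 0.05). Matrix proteases, annexins and S100 proteins had 3 lower of 21. Over all genes 13.3% were lower, so several of these counts are near that share. With animal as a block the lower counts were 1 macrophage, 0 stellate, 0 endothelial and 2 lymphocyte markers, and the matrix list had 1 higher and 1 lower. Cd163, a scavenger receptor of resident macrophages, had 6.73, 6.19, 6.11 and 7.05 in the labelled carcinomas and 7.14 to 8.56 in the adenomas, a fall of 1.18 ± 0.27 (adjusted p = 0.00409). Surrounding liver differed by -0.51 for Cd163, and the matched difference was -0.60 ± 0.41 (adjusted p = 0.727). The annexin Anxa5, which binds phospholipids in the presence of calcium, had 12.03 in replicate 1 and 10.12 to 10.36 in the others, against 11.37 to 12.05 in the adenomas.

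For some genes the plain difference went with the surrounding liver. Acadsb, an acyl-CoA dehydrogenase, had 7.68, 6.74, 6.5 and 7.48 in the labelled carcinomas and 4.07 to 4.76 in the adenomas, a plain difference of 2.75 ± 0.54 (adjusted p = 0.00121). Its surrounding arrays averaged 8.17 in the carcinomas' sets and 5.66 in the adenomas' sets, and the matched difference was 0.19 ± 0.42 (adjusted p = 0.918). The zinc finger gene Zbtb41 was 2.62 ± 0.51 lower in labelled carcinomas (plain difference -2.62, adjusted p = 0.00109), its surrounding arrays averaged 3.48 in the carcinomas' sets and 6.24 in the adenomas' sets, and the matched difference was 0.23 ± 0.22. In both genes the 2 kinds of surrounding liver were about as far apart as the lesions. This gap was also present within animal 23, between the surrounding arrays of its carcinomas' set and its adenomas' set. They had 8.35 and 5.79 for Acadsb and 3.35 and 6.14 for Zbtb41. Both genes stayed called with animal as a block (adjusted p = 0.0104 and 0.0152).

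Ly6e, a membrane protein of the Ly6 family, had a plain difference of 1.64 ± 0.50 (adjusted p = 0.0218) and a matched one of -0.96 ± 0.44 (adjusted p = 0.604), with surrounding averages of 9.04 in the carcinomas' sets and 6.49 in the adenomas' sets. Its plain call was lost without replicate 1 (1.20, adjusted p = 0.094), with animal as a block (1.17, adjusted p = 0.161) and over the mean of its probe sets (0.69, adjusted p = 0.0716). The protease inhibitor Mug1 had 2.45 ± 0.72 (adjusted p = 0.018) in the plain fit and -0.13 ± 0.97 in the matched fit, and its plain call was lost without replicate 1 (1.93, adjusted p = 0.0705), without replicate 4 (2.08, adjusted p = 0.0723) and with animal as a block (2.23, adjusted p = 0.0742). The acute phase gene Lbp, which binds lipopolysaccharide, had a plain difference of 2.30 ± 0.49 (adjusted p = 0.00226), a surrounding difference of 2.34 and a matched difference of -0.23 ± 0.49. Lgr5, Glul and Tbx3, by contrast, had surrounding differences of 0.14, 0.20 and -0.44 beside plain differences of 2.71, 2.67 and 2.40.

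**Figure D4:**
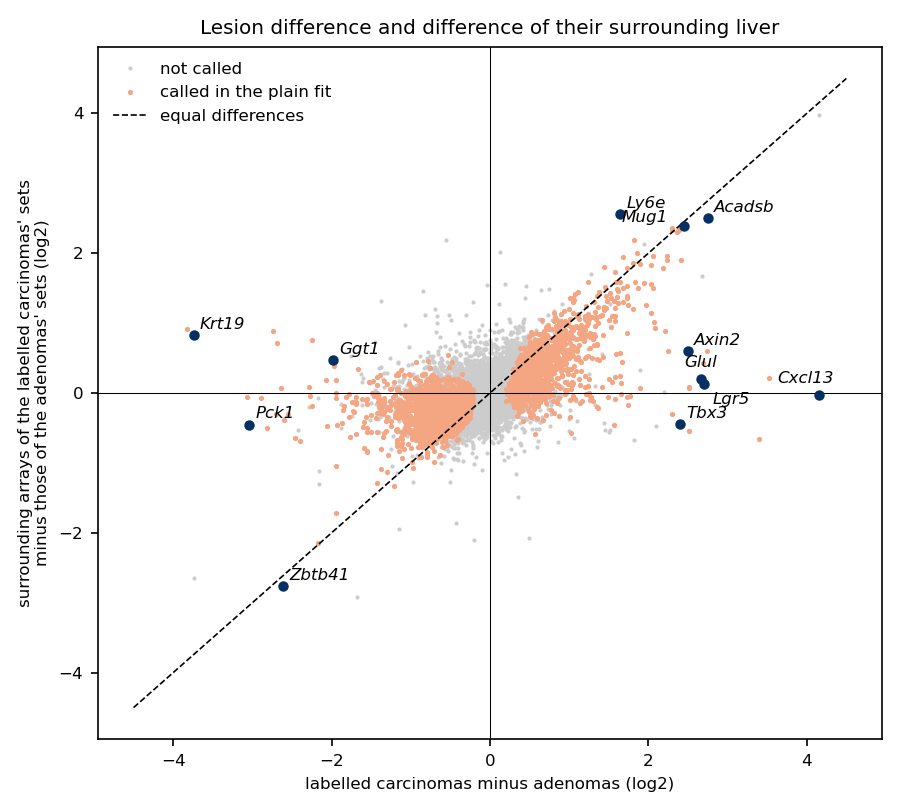
Plain log2 difference of the lesions (labelled carcinomas minus adenomas, x axis) against the log2 difference of the surrounding arrays (3 of the carcinomas' sets minus 2 of the adenomas' sets, y axis), with 1 point per gene and a dashed line where they are equal. Acadsb (2.75 and 2.50) and Zbtb41 (-2.62 and -2.76) lie near the line, and Lgr5 (2.71 and 0.14) lies near the horizontal axis.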

How the data were processed

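RNA was hybridised to Affymetrix rat arrays of 1 colour. Per the labels' protocols, it came from frozen tissue by TRIzol and miRNeasy extraction, and the labelling reaction took 250 ng. The authors deposited log2 values per probe set, which entered the fits unaltered. Their background correction, summarization and normalization are not given in the sources used here. Of 31042 probe sets 20826 had 1 gene symbol, and 436 with several and 9780 with none were left out. Each of 14217 genes was represented by its probe set with the highest mean. The medians of the fitted arrays were 5.49 to 5.59, their interquartile ranges 3.21 to 3.53 and their mean correlations with each other 0.965 to 0.979. No 2 lesions were near-identical (highest pairwise correlation 0.989). The number of arrays limits the precision.

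Samples were grouped by their group label, and animals were taken from titles and control sets because the source-animal field differs between samples of animal 21. Linear models were fitted with limma 3.58.1 in R 4.3.3 to 26 frozen arrays of 5 groups (arrays named C43 were left out), with moderated statistics and an intensity trend. The plain fit held the group (21 residual degrees of freedom) and the matched fit the group and the labelled control set as a block (15 residual degrees of freedom). P-values were adjusted by the Benjamini-Hochberg method. The fits were also run on simulated arrays with known changes, whose results are not given here. The simulated spread was independent between arrays, so those runs could not test the effect of lesions that share an animal. Animals pair lesions of the 2 groups only in animal 23, where the deviations of its 6 such pairs from their group means had a median correlation of 0.111 (3 above 0.1), against 0.00355 over 18 pairs of other animals (6 above 0.1). Subtracted values are a lesion minus the surrounding array of its set, and list scores are means over members of the deviation from the mean of the 10 lesions. RefSeq promoter windows were searched for the TCF core.

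Members, markers and gene lists were chosen with earlier results of these data known, so counts within lists are descriptions. Named genes were the 4 markers, the 8 largest rises and falls with the same sign in both fits, the 4 largest gaps between the fits, all Wnt and pericentral genes and the top 3 genes by plain p of every other list. Alternatives were other probe set choices, a filter on low values, quantile normalization, no intensity trend, fewer arrays in the fit, animal as a block and leaving out each array.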

Additional observations from a re-analysis of the deposited data

Results flagged for a closer look

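Labelled carcinoma replicate 1 lay far from the other 3 arrays of its group in 14 of the 109 named genes. Its log2 values were 3.08 for Lgr5, 5.7 for Axin2, 4.13 for LOC102554026, 9.26 for Glul, 5.06 for Tcf7, 8.14 for Cyp7a1, 9.30 for Lect2 and 10.60 for Gulo, each the lowest of the 4. It was the highest of the 4 for Ctrc (5.82), Aass (10.98), Anxa5 (12.03), Epcam (11.02), the aminotransferase Tat (10.76) and the red cell gene Slc4a1 (5.57). Over all 14217 genes replicate 1 was the distant array in 611 (4.3%), against 117 to 189 (0.823% to 1.33%) for each of the other labelled carcinomas. The critical value used marks about 1 in 20 groups by chance, whichever array is the distant one, so that rate is not the rate for a single array. These genes share arrays and were partly named for their differences.

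Labelled carcinoma replicate 4 was distant in Nkd1 (7.95) and in the score of rat focus and oncofetal markers (-1.34). Adenoma replicate 2 was distant in Cyp1a2 (9.5), Oat (10.02) and Lef1 (5.91), where it was the highest of 6, and in Slc22a3 (2.91), where it was the lowest. Adenoma replicate 1 was the highest in Lbp (9.86) and had the lowest score of fatty acid oxidation genes (-0.52). Adenoma replicate 4 was the lowest in Stab1 (6.56) and adenoma replicate 6 the lowest in Arg1 (12.72).

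Among the 109 named genes, Znrf3 and Ppara were flagged for opposite directions. They lay above the surrounding array in all 4 labelled carcinomas and below it in all 6 adenomas. The differences between the mean subtracted values were 1.60 and 0.94, and Ppara in replicate 4 was only 0.05 above its surrounding array. The pattern was not particular to them. Glud1 (0.12 to 0.94 against -0.60 to -0.12) and Daam2 (0.35 to 2.57 against -0.25 to -0.08) had it too, and it was not counted over all genes. These opposite directions were not themselves tested. The matched fit gave adjusted p-values of 0.533 for Znrf3 and 0.49 for Ppara.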

How the results depend on the processing

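The plain count of 3035 called genes lay between 2081 and 3301 when 1 lesion array was left out (lowest without labelled carcinoma replicate 3, highest without replicate 1). It was 1629 with only the 10 arrays of the 2 groups and 1953 with animal as a fixed block, of which 1773 were also called in the plain fit with the same sign, and 2939 with animal as a random block. The share of higher genes among the calls was 37.9%, and it was 57.1% after quantile normalization and 51.2% over the mean of all probe sets of a gene. The matched count of 0 lay between 0 and 33 when 1 array was left out. It was 33 without labelled carcinoma replicate 1, 3 without surrounding replicate 7, 1 without surrounding replicate 6 and 0 under the other alternatives.

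Over the mean of all probe sets, Elovl5 turned to 0.42 (adjusted p = 0.338, against -0.90) and Klf6 to 0.22 (adjusted p = 0.576, against -0.67), and the cause was not tested. Of 80 named genes called in the plain fit, 39 lost the call with only the 10 arrays, 23 with animal as a fixed block, 20, 23 and 23 without labelled carcinoma replicates 2, 3 and 4, 4 without replicate 1, 3 to 9 without an adenoma, 4 after quantile normalization and 3 others over the mean of all probe sets. Replicate 1 shares an animal with no adenoma, and no control set holds both groups, so the matched fit links the groups through surrounding arrays and other lesions of the sets.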
